A study of Homo sapiens with 9 samples.

Results

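Processed pseudogenes of ribosomal protein genes were examined in H1299 cells, a widely used cell line from a human non-small cell lung tumour. They were chosen as the genes annotated in GENCODE release 29 as processed or transcribed processed pseudogenes, with a symbol starting RPL or RPS and then a digit, that had at least 90 counts summed over all 9 libraries. They were thus selected on their summed count. Of 1054 such pseudogenes at any count among 58721 annotated genes, 61 met this rule, 52 of them annotated as processed and 9 as transcribed processed pseudogenes. They are copies of 36 parent genes, with 45 copies of large subunit genes (RPL) and 16 of small subunit genes (RPS), on 22 chromosomes. The summed count chose them, so their being counted at all is no result.

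A processed pseudogene arises when a messenger RNA is copied into DNA by the reverse transcriptase of a LINE-1 element and inserted elsewhere in the genome, usually without introns and without the promoter of its parent. Ribosomal protein genes are highly and broadly expressed and have left more such copies than almost any other gene family in mammals. Most copies carry mutations that break the reading frame, and a recent copy can differ from its parent messenger RNA at only a few bases.

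The study set 3 melatonin libraries and 3 siCLOCK libraries against 3 control libraries, from total RNA of this 1 line. Melatonin, the pineal hormone that signals darkness, was given at 0.1 mM. The siCLOCK cells were given small interfering RNA against CLOCK, a transcription factor of the circadian clock, and the controls were kept in serum free medium. Per the labels the medium is named for the controls only, no non-targeting small interfering RNA and no treatment time are given, and nothing says that samples were grown separately, so a p-value covers the spread among these samples alone.

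Counts assigned to genes ranged from 15384539 to 19192962 per library. CLOCK was counted at 40.9, 41.6 and 39 CPM (gene counts scaled to a common library total by the TMM method) in melatonin, 20.9 and 32 CPM in siCLOCK replicates 1 and 2, 38.1 CPM for the library labelled siCLOCK replicate 3, and 39, 38.6 and 44.4 CPM in control. The level in the library labelled siCLOCK replicate 3 lay close to the controls, and siCLOCK against control did not pass the test for CLOCK (log2 fold change -0.42, SE 0.14, adjusted p = 0.34). That library also stood with the melatonin libraries in its share of unmapped reads, 2.24% to 2.34% in these 4 libraries and 1.22% to 1.36% in the other 5, while multimapping reads made up 3.57% to 3.83% in all 9. Reads outside annotated genes divided the libraries the same way, at 5.58% to 5.89% in the 4 and 5.02% to 5.48% in the 5, and so did reads ambiguous between genes, at 9.77% to 10.09% in the 4 and 10.16% to 10.57% in the 5. Their part in the results was not tested. KRT8, KRT18 and VIM were present (130.3 to 182, 213 to 344 and 1466 to 2018 CPM). EPCAM, an epithelial adhesion molecule, was near 0 (0.213 to 0.476 CPM) and did not mark the cells as epithelial. The 12 markers of other cell types summed to 4.15 to 5.23 CPM in melatonin, 5.3 to 6.77 CPM in siCLOCK and 5.4 to 5.5 CPM in control, mostly PECAM1, COL1A1 and DCN, and 4 of the 12 had no count in any library.

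The 61 pseudogenes together took 107893 counts. RPS2P5 held 28.8% of them, and the 10 most counted held 72.3%. Their sum was 872, 895 and 937 unscaled CPM (out of all gene counts of the library, without TMM) in melatonin and 814 in the library labelled siCLOCK replicate 3. The same sum was 501 and 455 in siCLOCK replicates 1 and 2 and 492, 501 and 431 in the controls. The 4 libraries with more unmapped reads therefore did not overlap the other 5. In RNA from a whole culture, fewer cells with a transcript and less of it per cell cannot be told apart. The 95% Wilson interval of the lowest of the 4 ran from 801 to 827, and that of the highest of the 5 from 492 to 512, covering counting error only.

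Parent genes did not follow this division. The 36 parents summed to 32060 to 33849 unscaled CPM in melatonin, 29820 to 32795 CPM in siCLOCK and 30017 to 31916 in control. Per 100 parent counts, the pseudogenes gave 2.72, 2.75 and 2.77 counts in melatonin and 2.73 in the library labelled siCLOCK replicate 3, against 1.53 and 1.46 in siCLOCK replicates 1 and 2 and 1.58, 1.57 and 1.44 in control. The SD of this ratio was 0.0224 over the 4 libraries and 0.0634 over the 5.

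**Figure D1:**
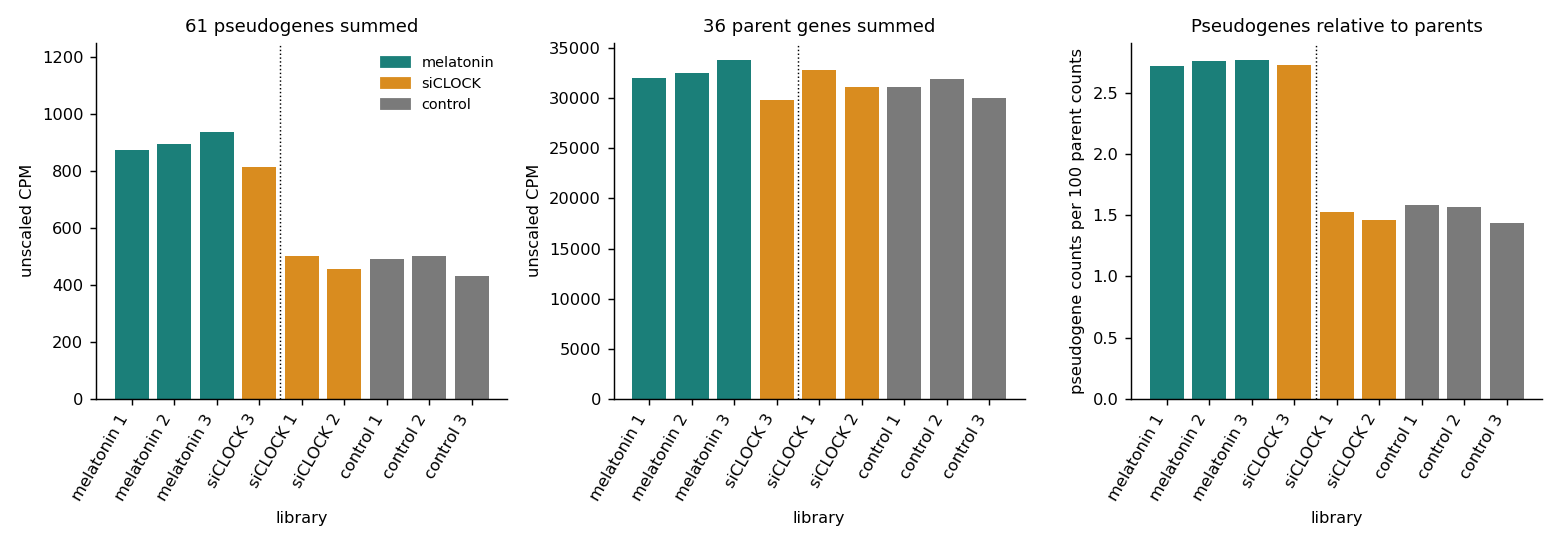
Bars give, for each library, the summed unscaled CPM of the 61 pseudogenes (left) and of their 36 parents (middle), and the pseudogene counts per 100 parent counts (right), with no error bar because each bar is 1 library. Left of the dotted line stand the 4 libraries with over 1.8% unmapped reads, at 814 to 937 CPM against 431 to 501 right of it, while the parents lie between 29820 and 33849 on both sides.

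In melatonin against control, 38 of the 61 pseudogenes rose, 3 fell and 20 did not pass the test. Of all 16441 genes tested, 11.0% were called higher and 12.1% lower in that comparison. The median log2 fold change was 1.16 over the 61 pseudogenes and 0.01 over all genes tested, and the calls that rose ran from 0.37 for RPL13P12 to 3.31 for RPS26P6. All 61 passed the filter on low counts and had at least 1 count in every library. Of the 61, 8 did not pass that filter among the 5 libraries with fewer unmapped reads alone, so they entered the tests through the counts of the other 4. They were RPS10P3, RPS26P6, RPL24P8, RPL26P30, RPL35P5, RPL7AP66, RPL7P23 and RPS15AP10, and over the other 53 the counts were 32 higher and 3 lower. Of the 45 large subunit copies 26 rose and 3 fell, and of the 16 small subunit copies 12 rose and none fell.

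RPS26P6, a copy of a small subunit gene whose protein sits at the exit channel for messenger RNA, moved furthest among them and was named after its values were seen, since its mean over the 9 libraries was just under 1 CPM. Of its 163 counts 144 lay in the 4 libraries with more unmapped reads, so its choice by summed count favoured a high fold. RPS26P6 had 2.08, 2.22 and 1.76 CPM in the melatonin libraries and 1.84 CPM in the library labelled siCLOCK replicate 3. It had 0.325 and 0.107 CPM in siCLOCK replicates 1 and 2 and 0.106, 0.265 and 0.224 CPM in the controls. It had 2.02 ± 0.237 CPM in melatonin and 0.198 ± 0.0824 CPM in control (SD, n = 3 each), a log2 fold change 3.31, SE 0.61, adjusted p = 0.000743, at 163 counts in all. RPS10P3, a copy of the small subunit gene RPS10, followed, likewise with 170 of its 203 counts in those 4 libraries. RPS10P3 had 1.89, 2.38 and 2.72 CPM in the melatonin libraries and 2.26 CPM in the library labelled siCLOCK replicate 3. Its level was 0.27 and 0.43 CPM in siCLOCK replicates 1 and 2 and 0.425, 0.212 and 0.449 CPM in control. In RPS10P3 the controls and siCLOCK replicates 1 and 2 shared 1 range, below each of the other 4 libraries, and melatonin against control gave a log2 fold change 2.68, SE 0.52, adjusted p = 0.00116.

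RPL7P1, a copy of the large subunit gene RPL7 and far more abundant, showed the same division on many more counts. RPL7P1 had 37.6, 30.7 and 36.4 CPM in the melatonin libraries and 39.3 CPM in the library labelled siCLOCK replicate 3. In siCLOCK replicates 1 and 2 it had 7.36 and 6.55 CPM, and in the controls 7.7, 6.19 and 6.28 CPM. The test gave a log2 fold change 2.37, SE 0.43, adjusted p = 0.000672. Its parent RPL7 had 2454 ± 117 CPM in melatonin and 2548 ± 124 CPM in control (log2 fold change -0.05, SE 0.06, adjusted p = 0.568). The other copy of RPL7 with many counts, RPL7P9, rose less. RPL7P9 had 41.6, 37.5 and 40.7 CPM in the melatonin libraries and 41 CPM in the library labelled siCLOCK replicate 3. Values of 14.9 and 16.9 CPM in siCLOCK replicates 1 and 2 and 15.7, 15.5 and 16.7 CPM in the controls stood against these. For RPL7P9 the test gave a log2 fold change 1.33, SE 0.24, adjusted p = 0.00052, and the 4 higher libraries lay within 37.5 to 41.6 CPM.

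RPS10P3, RPL7P1 and 6 others had the highest log2 fold changes among the copies that averaged 1 CPM or more, and these 6 were all from the large subunit except RPS28P7. They were RPL13AP25 (2.23, SE 0.36), RPL10P16 (2.17, SE 0.36), RPL21P16 (2.15, SE 0.36), RPL41P5 (2.02, SE 0.36), RPL7AP6 (1.94, SE 0.30) and RPS28P7 (1.83, SE 0.23), with adjusted p from 1.72e-05 to 0.000584. RPL21P16 is identical to its parent transcript over all 483 of its bases. RPL21P16 had 7.75, 8.11 and 8.21 CPM in the melatonin libraries and 7.35 CPM in the library labelled siCLOCK replicate 3. Set against these were 1.62 and 1.88 CPM in siCLOCK replicates 1 and 2 and 1.91, 2.01 and 1.46 CPM in control. RPL10P16 shares exonic bases with the annotated gene AC010422.3 on the same strand, so reads in the shared stretch cannot be told apart. RPL10P16 had 7.38, 7.8 and 8.63 CPM in the melatonin libraries and 7.35 CPM in the library labelled siCLOCK replicate 3. It had 2.0 and 1.67 CPM in siCLOCK replicates 1 and 2 and 1.54, 1.85 and 1.91 CPM in the controls.

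The 3 copies that fell were RPL12P14, RPL12P42 and RPL13AP20. RPL12P14 had 0.631, 0.723 and 1.07 CPM in the melatonin libraries and 1.84 CPM in the library labelled siCLOCK replicate 3. Its level was 1.19 and 1.56 CPM in siCLOCK replicates 1 and 2 and 1.75, 2.33 and 2.47 CPM in control. For RPL12P14 the log2 fold change of melatonin against control was -1.41 (SE 0.26, adjusted p = 0.000747), and the library labelled siCLOCK replicate 3 stood inside the control range, away from melatonin. RPL12P42 had 0.883, 0.258 and 0.533 CPM in the melatonin libraries and 1.26 CPM in the library labelled siCLOCK replicate 3. In siCLOCK replicates 1 and 2 it had 1.08 and 0.806 CPM, and in the controls 1.65, 1.22 and 1.46 CPM. RPL12P42 fell by 1.41 on the log2 scale (SE 0.33, adjusted p = 0.00507), again with the library labelled siCLOCK replicate 3 near the controls. RPL13AP20 had 2.65, 2.33 and 1.86 CPM in the melatonin libraries and 2.62 CPM in the library labelled siCLOCK replicate 3. Values of 5.84 and 3.28 CPM in siCLOCK replicates 1 and 2 and 4.56, 4.61 and 4.77 CPM in the controls stood against these. RPL13AP20 differed from these 2 in that the library labelled siCLOCK replicate 3 stood inside the melatonin range, and it fell by 1.03 on the log2 scale (SE 0.24, adjusted p = 0.00385).

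No pseudogene of the 61 passed in siCLOCK against control, in which 0.0547% of all genes tested were called higher and 0.0669% lower. The median log2 fold change was 0.48, against 0.00 over all genes. Of the 61, 29 had an unadjusted p under 0.05 with edgeR, a limit at which all genes were not counted, so no share stands beside it. DESeq2 also called 0, and edgeR with no filter on low counts called 24 higher. This group mean joins 2 libraries near the controls and 1 near melatonin: over the 61, the median fold of the library labelled siCLOCK replicate 3 over the mean of siCLOCK replicates 1 and 2 was 1.997. Between melatonin and siCLOCK, 27 rose, 2 fell and 32 did not pass, beside 7.43% and 10.1% of all genes, with a median log2 fold change of 0.66. RPL21P16 (log2 fold change 1.14, SE 0.32, adjusted p = 0.0202), RPL10P16 (log2 fold change 1.11, SE 0.32, adjusted p = 0.0213) and RPL39P3 (log2 fold change 1.05, SE 0.21, adjusted p = 0.00194) had the highest log2 fold changes among called copies that averaged 1 CPM or more. RPL26P30 (adjusted p = 0.00613) and RPS26P6 (log2 fold change 1.39, adjusted p = 0.0423), which averaged less, had higher fold changes still. RPL12P14 and RPL13AP20 were the 2 that fell in it. Without the library labelled siCLOCK replicate 3 the count that rose was 38, and without siCLOCK replicate 2 it was 9. Leaving out siCLOCK replicate 1 or melatonin replicate 1 gave 16, and leaving out melatonin replicate 2 or 3 gave 12. The 3 comparisons share libraries and are given side by side only.

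Set against one another by library, the 4 with over 1.8% unmapped reads were all above the other 5 in 37 pseudogenes and all below them in 2, RPL13AP20 and RPL23AP7, while 22 overlapped. Over all genes tested, 6.92% were above without overlap and 7.44% below. This division of the libraries was known from these data before the pseudogenes were chosen, and it is given as a description with no test. The median fold of the 4 over the 5 was 2.28 for the 61 pseudogenes, 1.25 for 451 other processed pseudogenes tested and 0.981 for the 36 parents. Of those other processed pseudogenes, 31.5% were above without overlap and 2.44% below. The library labelled siCLOCK replicate 3 alone exceeded all 5 other libraries in 39 of the 61 and was below all 5 in 3. For this count of 1 library against 5, less strict than 4 against 5, the share over all genes was not taken. The 6.92% and 7.44% above therefore do not apply to it.

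**Figure D2:**
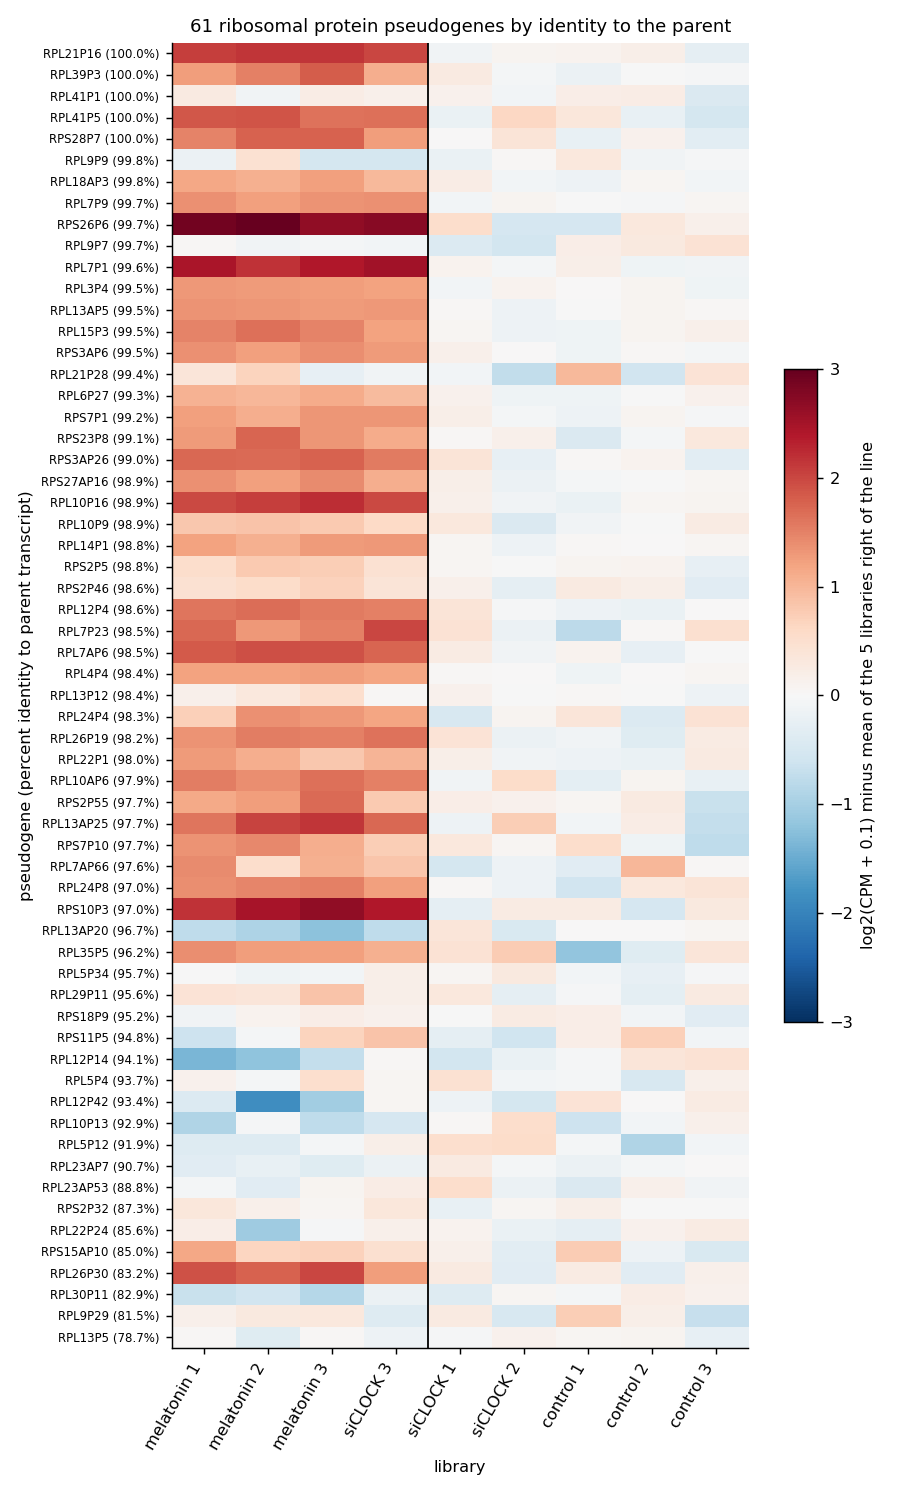
Colour gives log2(CPM + 0.1) of each pseudogene in each library minus its mean over the 5 libraries right of the black line, with rows sorted by identity to the parent transcript. The 4 libraries left of the line are red together for most rows of 97% identity and above, and mixed below that.

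Groups were also compared within each set. Among the 5 libraries with fewer unmapped reads, siCLOCK replicates 1 and 2 against control gave 0 calls of 53 pseudogenes tested with edgeR, with a median log2 fold change of 0.05 and 4 at an unadjusted p under 0.05. Of all genes tested there, 0.0308% were called higher and 0.0185% lower at adjusted p under 0.05, and they were not counted at the unadjusted limit. Among the other 4, melatonin against the library labelled siCLOCK replicate 3 gave 5 higher and 2 lower of 61, with a median of 0.10, beside 7.92% and 9.67% of all genes. That comparison has 1 library on one side and takes its spread from the melatonin libraries alone, on the assumption that the lone library varies like them. The 5 were RPS2P5, RPL13P12, RPL15P3, RPS28P7 and RPL39P3, with log2 fold changes of 0.24 to 0.48, and the 2 were RPL12P14 (-1.17) and RPL12P42 (-1.22).

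A term for the library set in the model over all 9 libraries was fitted as well. With it, melatonin against control called 0 higher and 1 lower, RPL12P14 (-1.83, adjusted p = 0.0169), where 1.72% and 2.96% of all genes were called. For melatonin against siCLOCK it called 0 and 0 (all genes 2.0% and 3.85%), and for siCLOCK against control 0 and 0 (0.444% and 0.262%). The median log2 fold change of melatonin against control was then 0.13 over the 61, and the median of the set term itself was 0.996. This fit rests on the library labelled siCLOCK replicate 3 set against siCLOCK replicates 1 and 2, since every melatonin library is in 1 set and every control in the other, and melatonin and the share of unmapped reads cannot be told apart further. Whether the unmapped reads themselves have a part in the pseudogene counts was not tested.

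**Figure D3:**
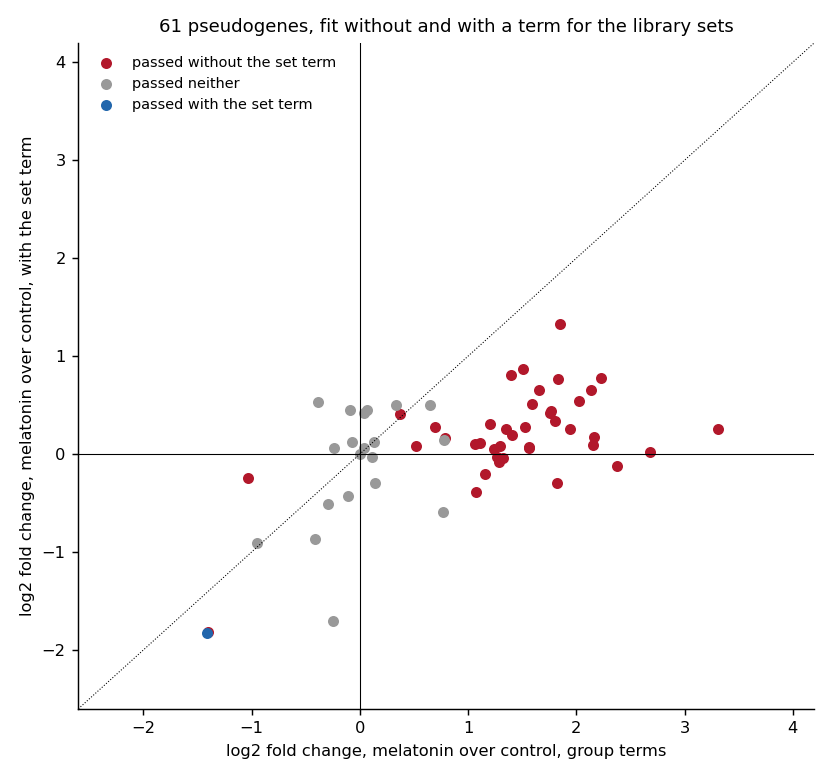
Each point is 1 of the 61 pseudogenes, with its log2 fold change of melatonin over control in the fit with group terms (horizontal) and in the fit that also has a term for the library set (vertical), and the dotted line marks equal values. Of the points on the right, up to 3.31, most lie below the dotted line but above 0 on the vertical axis, up to 1.33 for RPL35P5. Of the copies called higher, 7 lie below 0. RPL12P14 and RPL12P42 coincide near -1.4 and -1.8.

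The 12 pseudogenes with most counts are described next. RPS2P5, the most abundant, lies at chr12:118246084-118246962 on the + strand of GRCh38, in an intron of TAOK3 on the opposite strand, and copies a small subunit gene whose protein lines the messenger RNA channel. RPS2P5 had 217, 259.6 and 249 CPM in the melatonin libraries and 206 CPM in the library labelled siCLOCK replicate 3. Set against these were 157 and 150.5 CPM in siCLOCK replicates 1 and 2 and 161, 161 and 127 CPM in control. It rose in melatonin against control (log2 fold change 0.69, SE 0.11, adjusted p = 0.000147) by less than most of the others. RPS2P5 gave 9.07, 9.8 and 9.29 counts per 100 RPS2 counts in the melatonin libraries and 9.3 in the library labelled siCLOCK replicate 3, against 5.89 and 6.13 in siCLOCK replicates 1 and 2 and 6.15, 5.88 and 5.56 in the controls. RPS2P46, another copy of RPS2, moved alike, with a log2 fold change 0.52, SE 0.14, adjusted p = 0.0144.

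RPL13P12 and RPL41P1 stood out among the 12 for how little they moved. RPL13P12 had 56.6, 63.6 and 72.8 CPM in the melatonin libraries and 52.5 CPM in the library labelled siCLOCK replicate 3. It had 56.4 and 51 CPM in siCLOCK replicates 1 and 2 and 52.3, 51 and 46.1 CPM in the controls. RPL13P12 still passed (log2 fold change 0.37, SE 0.09, adjusted p = 0.00417), but the library labelled siCLOCK replicate 3 stood among the lower 5. RPL41P1 had 55.5, 42.4 and 53.9 CPM in the melatonin libraries and 51.4 CPM in the library labelled siCLOCK replicate 3. Its level was 50.04 and 43.1 CPM in siCLOCK replicates 1 and 2 and 52.6, 53.2 and 33.8 CPM in control. RPL41P1, an 81-base copy of the gene for the smallest ribosomal protein, is identical to its parent throughout and did not pass (log2 fold change 0.12, SE 0.13, adjusted p = 0.574), with the groups overlapping. The other copy of RPL41, RPL41P5, is identical as well over its 78 bases and had a fold of 3.55 between the library sets.

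The remaining 7 of the 12 were RPL18AP3, RPL13AP5, RPL6P27, RPL4P4, RPL7AP6, RPL15P3 and RPL7P9, all copies of large subunit genes, and all rose in melatonin against control. RPL18AP3 had 43.6, 40.7 and 45.7 CPM in the melatonin libraries and 38.5 CPM in the library labelled siCLOCK replicate 3. In siCLOCK replicates 1 and 2 it had 22.9 and 18.5 CPM, and in the controls 17.6, 20.4 and 18.5 CPM. RPL6P27 is annotated as transcribed. RPL6P27 had 35.5, 34.5 and 37.5 CPM in the melatonin libraries and 33.5 CPM in the library labelled siCLOCK replicate 3. Values of 18.7 and 15.8 CPM in siCLOCK replicates 1 and 2 and 15.7, 17.1 and 18.8 CPM in the controls stood against these. RPL4P4 copies RPL4, whose protein lines the exit tunnel of the large subunit. RPL4P4 had 25.3, 25.1 and 25.9 CPM in the melatonin libraries and 25 CPM in the library labelled siCLOCK replicate 3. Set against these were 11.1 and 10.9 CPM in siCLOCK replicates 1 and 2 and 9.98, 11.1 and 11.4 CPM in control. In each of these the 4 higher libraries were about level with each other, and so were the 5 lower ones. RPL7AP6 had 23.4, 24.7 and 24.4 CPM in the melatonin libraries and 21.9 CPM in the library labelled siCLOCK replicate 3. It had 7.63 and 5.96 CPM in siCLOCK replicates 1 and 2 and 7.0, 5.45 and 6.45 CPM in the controls. RPL7AP6 thus had the widest gap of these, and RPL15P3 a narrower one, with the library labelled siCLOCK replicate 3 lowest of the 4. RPL15P3 had 20.2, 22.9 and 20.5 CPM in the melatonin libraries and 16.6 CPM in the library labelled siCLOCK replicate 3. Its level was 7.52 and 6.45 CPM in siCLOCK replicates 1 and 2 and 6.53, 7.57 and 7.97 CPM in control. Log2 fold changes of melatonin over control in these 7 ran from 1.06 (SE 0.18) for RPL6P27 to 1.94 (SE 0.30) for RPL7AP6, and adjusted p from 5.66e-05 to 0.000607.

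**Figure D4:**
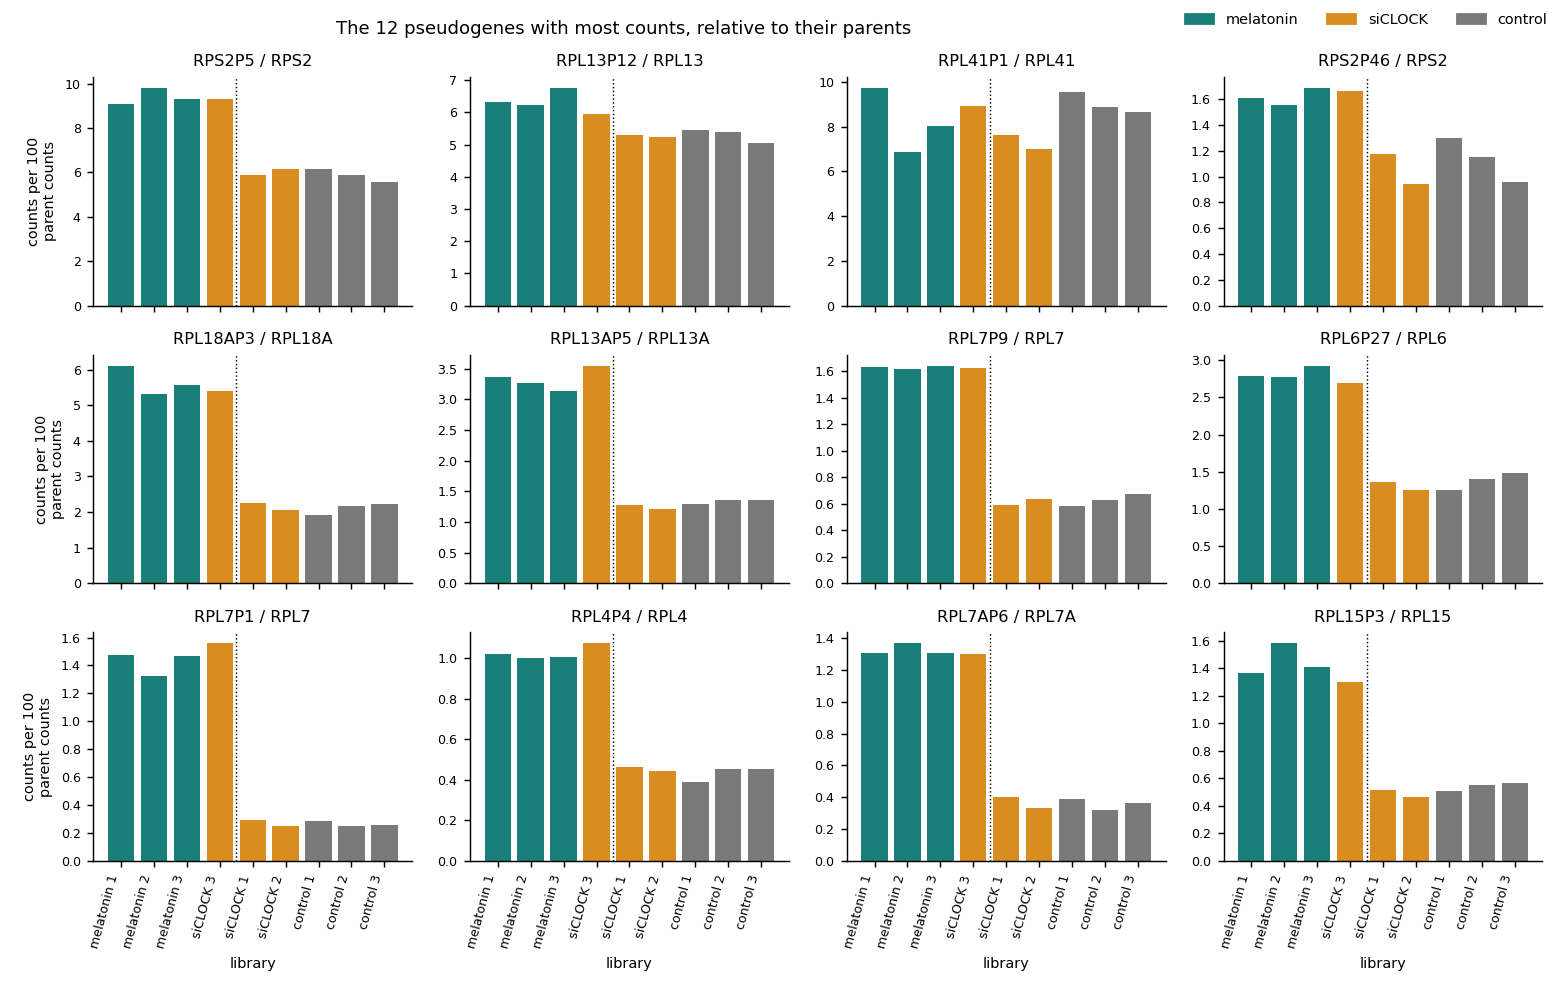
Each panel gives 1 of the 12 most counted pseudogenes as counts per 100 counts of its parent in each library, with each vertical axis from 0 and no error bar because each bar is 1 library. RPL7P1 stands at 1.32 to 1.56 left of the dotted line and 0.247 to 0.289 right of it, whereas RPL41P1 overlaps across the line.

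Some families with several copies are described next, and values did not follow sequence in every family. RPL9P9, RPL9P7 and RPL9P29 are 99.8%, 99.7% and 81.5% identical to RPL9. Their folds between the library sets were 0.889, 0.919 and 1.02. RPL10P9 and RPL10P16 are both 98.9% identical to RPL10 and had folds of 1.69 and 4.34, while RPL10P13 (92.9%) had 0.64. The RPL12 family was picked for display outside the naming rule, with earlier results known. RPL12 encodes a large subunit protein at the base of the stalk that binds translation factors, and 1 of its 3 copies rose while 2 fell. The first 150 coding bases of RPL12 are shown with the stretches of the 3 copies aligned to them, from GENCODE release 29 on GRCh38. Capitals mark bases that differ from RPL12 or are inserted relative to it, and deleted bases leave no mark. RPL12 is spliced from chr9:127449670-127451317 (- strand). RPL12P4 lies at chr20:55074644-55074792 (+ strand), RPL12P14 at chr1:15792796-15792941 (+ strand) and RPL12P42 at chr19:13158638-13158788 (- strand).
RPL12: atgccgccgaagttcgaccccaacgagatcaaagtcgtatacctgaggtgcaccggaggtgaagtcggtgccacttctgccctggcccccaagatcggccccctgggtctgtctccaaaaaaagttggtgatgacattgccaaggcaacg
RPL12P4: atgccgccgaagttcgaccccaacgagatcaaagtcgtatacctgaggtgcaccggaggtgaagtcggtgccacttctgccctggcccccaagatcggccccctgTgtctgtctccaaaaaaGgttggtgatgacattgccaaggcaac
RPL12P14: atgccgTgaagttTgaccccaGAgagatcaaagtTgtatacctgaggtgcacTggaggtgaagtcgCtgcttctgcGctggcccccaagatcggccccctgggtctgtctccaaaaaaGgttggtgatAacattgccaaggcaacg
RPL12P42: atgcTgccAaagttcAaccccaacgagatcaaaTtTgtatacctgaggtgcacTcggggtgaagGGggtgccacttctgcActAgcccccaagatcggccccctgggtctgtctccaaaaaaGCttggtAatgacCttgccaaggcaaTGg
In this stretch RPL12P4 had 2 mismatches and 1 gap base, RPL12P14 10 and 4, and RPL12P42 14 and 3. Over their whole aligned length the 3 were 98.6%, 94.1% and 93.4% identical to RPL12.

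RPL12P4 had 8.76, 9.3 and 8.53 CPM in the melatonin libraries and 8.24 CPM in the library labelled siCLOCK replicate 3. In siCLOCK replicates 1 and 2 it had 3.73 and 2.74 CPM, and in the controls 2.55, 2.44 and 2.86 CPM. RPL12P4 rose in melatonin against control (log2 fold change 1.76, SE 0.26, adjusted p = 0.000107). RPL12 rose slightly too, with 1680.1 ± 19.9 CPM in melatonin and 1434 ± 9.55 CPM in control (log2 fold change 0.23, SE 0.06, adjusted p = 0.0136). Per 100 RPL12 counts, RPL12P4 gave 0.517, 0.561 and 0.505 in melatonin and 0.583 in the library labelled siCLOCK replicate 3, against 0.234 and 0.202 in siCLOCK replicates 1 and 2 and 0.179, 0.169 and 0.20 in control. The 2 copies further from the parent, given above, had folds of 0.572 and 0.591 between the library sets, against 3.04 for RPL12P4.

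RPL13A, a large subunit gene whose protein also acts in repressing translation of inflammatory messenger RNAs, had 3 copies in which 2 rose and 1 fell. RPL13AP5, RPL13AP25 and RPL13AP20 are 99.5%, 97.7% and 96.7% identical to RPL13A over the whole alignment. RPL13AP20 and RPL13AP25 are thus close in identity while their folds between the library sets were 0.513 and 3.83.

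RPL13AP5 had 41.6, 40.8 and 39.8 CPM in the melatonin libraries and 40.2 CPM in the library labelled siCLOCK replicate 3. Values of 16.7 and 14.7 CPM in siCLOCK replicates 1 and 2 and 16.2, 17.3 and 16.7 CPM in the controls stood against these. RPL13AP5 rose (log2 fold change 1.28, SE 0.23, adjusted p = 0.000607). RPL13AP25 had 2.65, 3.56 and 3.89 CPM in the melatonin libraries and 2.89 CPM in the library labelled siCLOCK replicate 3. Set against these were 0.703 and 1.4 CPM in siCLOCK replicates 1 and 2 and 0.743, 0.953 and 0.449 CPM in control. RPL13AP25 was far less abundant than RPL13AP5, and it rose as well. The parent RPL13A was level, with 1250.1 ± 17.1 CPM in melatonin and 1253 ± 19.8 CPM in control (SD, n = 3 each; log2 fold change -0.00, SE 0.06, adjusted p = 0.977).

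RPS2 had the most copies, 4 of the 61. RPS2P5 is shown beside RPS2 because it holds more counts than any other copy. RPS2 lies at chr16:1964476-1964625 (- strand) over this stretch and RPS2P5 at chr12:118246084-118246233 (+ strand).
RPS2: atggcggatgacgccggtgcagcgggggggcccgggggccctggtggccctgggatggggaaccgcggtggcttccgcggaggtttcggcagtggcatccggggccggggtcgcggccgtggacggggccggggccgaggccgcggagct
RPS2P5: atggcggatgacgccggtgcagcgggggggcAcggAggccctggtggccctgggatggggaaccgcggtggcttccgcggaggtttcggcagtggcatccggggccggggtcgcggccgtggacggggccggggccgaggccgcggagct
RPS2P5 differs at 2 bases here and is 98.8% identical overall. Folds between the library sets were 1.54 for RPS2P5, 1.43 for RPS2P46 (98.6% identical), 2.43 for RPS2P55 (97.7%) and 1.18 for RPS2P32 (87.3%). RPS2P32 was the 1 copy of RPS2 that did not pass in melatonin against control. RPS2P32 had 1.32, 1.14 and 1.07 CPM in the melatonin libraries and 1.31 CPM in the library labelled siCLOCK replicate 3. It had 0.866 and 1.07 CPM in siCLOCK replicates 1 and 2 and 1.17, 1.01 and 1.01 CPM in the controls. Its groups overlapped, with a log2 fold change 0.14, SE 0.25, adjusted p = 0.752.

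Across the 61, copies at least 97% identical to their parent mostly showed a larger difference between the library sets than copies below that. Identity to the parent transcript, which the choice of genes did not use, ran from 78.7% to 100%, with a median of 98.4%, and 5 copies were identical throughout. Of 40 copies with at least 97% identity, 34 had all 4 libraries above the other 5, 6 overlapped and none was below, with a median fold of 2.47. Of 21 copies under 97%, 3 were above, 2 below and 16 overlapped, with a median fold of 0.985. Some copies on both sides of this limit did not pass the filter on low counts in the 5 libraries alone. Without those copies, 31 of 36 at 97% or more were above and 5 overlapped, with a median fold of 2.44. Under 97%, none of 17 was then above, 2 were below and 15 overlapped, with a median fold of 0.928. The 97% limit was set after the values were seen. Spearman's rho between identity and the log2 fold was 0.49 over the 61 (Pearson's r 0.45), and 0.43 between the longest identical run and the log2 fold. Members of 1 family share a parent, and all points share the same 9 libraries, so these are descriptions. The log2 fold followed the level less, with rho 0.21 for mean CPM.

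Several copies did not follow identity. RPL26P30, 83.2% identical to RPL26 and annotated as transcribed, had a fold of 4.1. RPL26P30 had 1.39, 1.24 and 1.49 CPM in the melatonin libraries and 0.84 CPM in the library labelled siCLOCK replicate 3. Its level was 0.379 and 0.215 CPM in siCLOCK replicates 1 and 2 and 0.371, 0.212 and 0.337 CPM in control. Its 118 counts are few, and it passed in melatonin against control (log2 fold change 2.14, SE 0.39, adjusted p = 0.000585). RPL35P5 (96.2% identical) and RPS10P3 (96.97%) were the other copies under 97% that stood apart, with folds of 2.41 and 6.47. All 3 are among the 8 copies that did not pass the filter in the 5 libraries alone, so the choice of genes favoured their high folds, and of the 17 copies under 97% that passed it none was above, 2 were below and 15 overlapped. Among close copies, RPL9P9 (99.8%), RPL9P7 (99.7%), RPL21P28 (99.4%), RPL41P1 (100%), RPL13P12 (98.4%) and RPL7AP66 (97.6%) overlapped between the sets. RPL9P9 had 0.504, 0.827 and 0.373 CPM in the melatonin libraries and 0.367 CPM in the library labelled siCLOCK replicate 3. In siCLOCK replicates 1 and 2 it had 0.487 and 0.591 CPM, and in the controls 0.743, 0.529 and 0.561 CPM. RPL9P9 had no direction in any group, and at 92 counts in 9 libraries it allows little precision.

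**Figure D5:**
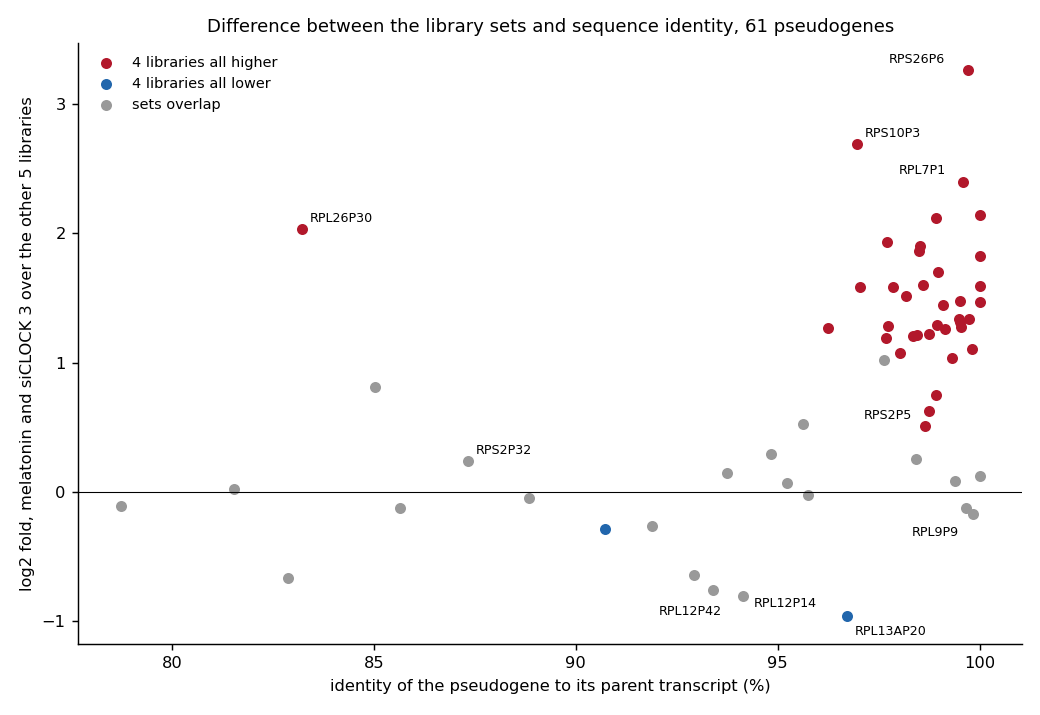
Each point is 1 of the 61 pseudogenes, with percent identity to its parent transcript on the horizontal axis and, on the vertical axis, the log2 fold of the 4 libraries with over 1.8% unmapped reads over the other 5. Of the points at 97% and above 34 of 40 are red (no overlap, higher), and below it RPL26P30 and RPS10P3 stand apart from a cloud around 0.

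Reads were paired and 150 bases long, and a read inside a stretch identical to the parent can be placed only by its mate or by bases outside that stretch. Copies identical throughout still held counts, such as RPL41P1 with 8020 and RPL21P16 with 739. Of the 61, 31 hold at least 1 window of 150 bases identical to the parent transcript, and 42 hold one of 100 bases, while 2 are shorter than 150 bases. Alignments spanned 2 to 9 splice junctions of the parent, with a median of 5. Counts on the strand columns were uneven for many copies. In 29 of 61 (47.5%) the first strand column held under 40% or over 60% of the counts. That was so for 119 of 395 other processed pseudogenes with at least 90 counts (30.1%) and for 6 of 36 parents. Of all 15907 genes with at least 90 counts it was so for 7.7%. RPS10P3 was at 94.1% and RPL7P1 at 81.7%, while the median of all those genes was 50.9%.

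Copies of the parent genes were mostly far below them in level per exonic kilobase. Over the 61, counts per kilobase were at a median of 3.36% of the parent, with 19 under 1% and 16 over 10%. Per kilobase, RPS10P3 (227%), RPL26P19 (165%) and RPL41P1 (111%) exceeded their parents. RPL13P12 (55.8%), RPL22P1 (46%), RPS23P8 (43.1%), RPS15AP10 (37.5%) and RPL39P3 (36.4%) followed. These values depend on the length used, which joins all annotated exons of a gene, 81 bases for RPL41P1 and 1088 for RPL41. In summed counts none exceeded its parent: RPS10P3 had 203 against 427, RPL26P19 957 against 3328 and RPL41P1 8020 against 96854. Several of these parents share exonic bases with other annotated genes, and reads in shared bases are not counted to either gene. RPS10 had 427 counts over all 9 libraries and shares exons with RPS10-NUDT3, RPL26 had 3328 and shares exons with AC135178.2, and RPS15A had 4618 and shares exons with AC138811.2, all on the same strand. RPS23 had 9722 counts regardless of strand but 115057 over the strand columns, with ATG10 on the opposite strand. The same held for RPL30 (11634 and 273428), RPL23A (7890 and 89709), RPS3A (39117 and 126527) and RPL10 (163675 and 237911), so ratios to these parents rest on part of their reads.

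Relative to the parent, 39 of the 61 had all 4 libraries above the other 5, 1 was below and 21 overlapped. The median log2 ratio between the sets was 1.22. The 39 include RPS26P6, RPS10P3, RPL24P8, RPL26P30, RPL35P5 and RPL7P23, which did not pass the filter on low counts in the 5 libraries alone. The choice of genes thus favoured high ratios for these copies, among them RPS26P6 and RPS10P3 as given next. RPS26P6 gave 0.45, 0.50 and 0.364 counts per 100 RPS26 counts in the melatonin libraries and 0.428 in the library labelled siCLOCK replicate 3, against 0.0578 and 0.0225 in siCLOCK replicates 1 and 2 and 0.0218, 0.0531 and 0.0522 in the controls. The parent RPS26 was level, with 463 ± 19.2 CPM in melatonin and 472 ± 36.7 CPM in control. RPS10P3 gave 69.8, 100 and 100 counts per 100 RPS10 counts in the melatonin libraries and 84.3 in the library labelled siCLOCK replicate 3, against 9.43 and 20.5 in siCLOCK replicates 1 and 2 and 17.4, 7.84 and 17 in the controls. Parents themselves ranged from 0.817 to 1.16 in fold between the sets. Of the 36, 4 passed in melatonin against control, all higher: RPL12 (0.23), RPS27A (0.23), RPL21 (0.27) and RPS3A (0.19), on the log2 scale. That count is near the share of all genes tested, of which 11.0% were called higher and 12.1% lower. The median log2 fold change over the 36 was 0.03.

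The 9 transcribed processed pseudogenes were mixed. RPL6P27, RPS27AP16 and RPL26P30 had all 4 libraries above the other 5, RPL23AP7 had all 4 below, and RPL13P5, RPS18P9, RPL23AP53, RPL30P11 and RPL9P9 overlapped, with a median fold of 0.967 over the 9 and 2.33 over the other 52. RPS27AP16 copies a gene that encodes ubiquitin fused to a small subunit protein. RPS27AP16 had 15.6, 14.3 and 16.1 CPM in the melatonin libraries and 13 CPM in the library labelled siCLOCK replicate 3. Values of 6.82 and 5.32 CPM in siCLOCK replicates 1 and 2 and 5.73, 5.98 and 6.28 CPM in the controls stood against these. RPS27AP16 rose (log2 fold change 1.35, SE 0.20, adjusted p = 0.000117), and so did its parent RPS27A, by less (log2 fold change 0.23, SE 0.06, adjusted p = 0.00693). RPL23AP7 had 8.7, 9.35 and 8.53 CPM in the melatonin libraries and 9.65 CPM in the library labelled siCLOCK replicate 3. Set against these were 13.1 and 10.6 CPM in siCLOCK replicates 1 and 2 and 9.71, 10.6 and 11.1 CPM in control. RPL23AP7, 90.7% identical to RPL23A, did not pass (log2 fold change -0.24, SE 0.12, adjusted p = 0.162). RPS18P9 shares exonic bases with KATNA1 on the opposite strand, and its strand columns sum to 3.96 times its count regardless of strand.

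Positions in the genome varied. Of the 61, 30 lie outside other annotated genes and 31 overlap the body of at least 1, wholly or in part. Of these 31, 16 overlap a gene on the same strand, and 4 share exonic bases with another gene. Median folds between the library sets were 2.07 with an overlapping gene on the same strand, 1.54 with one on the opposite strand only and 2.37 outside other genes. Just inside the threshold of 90 counts were RPL9P9 with 92, RPL30P11 with 93 and, at 99 each, RPL21P28, RPL7P23 and RPS15AP10. Just outside were RPS20P14 and RPL17P50 with 86 and RPL7AP10 with 83. The 993 pseudogenes below the threshold, 624 of them at 0, summed to 24.4 to 29.9 unscaled CPM in the 4 libraries and 20.5 to 22.2 in the other 5.

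Copies of other highly expressed genes were mixed. Of 50 such copies tested, 21 had all 4 libraries above the other 5, 4 had all 4 below and 25 overlapped, with a median fold of 1.36. Over all genes tested, 6.92% were above and 7.44% below. The 5 processed pseudogenes of EEF1A1, which encodes a translation elongation factor, summed to 737, 675 and 690.1 unscaled CPM in melatonin and 704 in the library labelled siCLOCK replicate 3, against 170.2 and 162 in siCLOCK replicates 1 and 2 and 171, 160.2 and 177 in control. Their fold between the sets was 4.17, and that of EEF1A1 itself 1.01. Summed copies of FTH1 (4.35), YWHAZ (2.92), EEF1B2 (2.43), TUBB (2.26) and HNRNPA1 (2.1) also had high folds. The folds of these parents were 1.11, 0.971, 0.922, 0.758 and 0.831. Summed copies of PTMA (1.04), KRT8 (0.815) and HMGB1 (0.704) were near 1 or below it, and so were their parents, at 0.795, 0.867 and 0.776. All other processed pseudogenes summed to 2773 to 2814 unscaled CPM in the 4 libraries and 1564 to 1657 in the other 5.

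Genes of the pathways around these copies were called in melatonin against control at shares to be read beside the 11.0% higher and 12.1% lower of all genes tested, and none passed in siCLOCK against control. Of 84 cytosolic ribosomal protein genes tested, 10 rose and 3 fell, led by RPL23 (0.47), RPL39L (-0.53) and RPS27 (0.33), with a median log2 fold change of 0.04. Of 17 other messenger RNAs with a terminal oligopyrimidine tract, 1 rose and 4 fell, led by HNRNPA1 (-0.40), TPT1 (0.34) and NPM1 (-0.45). Of 20 regulators of such messenger RNAs, 2 rose and 5 fell, led by EIF4EBP1 (-0.69), TSC1 (0.34) and RHEB (-0.35). Of 16 genes of nonsense-mediated decay, 2 rose and 2 fell, led by UPF3B (-0.67), NBAS (0.28) and SMG8 (0.30). Of 16 genes that silence retroelements or work with that machinery, 3 rose and 3 fell, led by DNMT1 (-0.53), HELLS (-0.45) and CBX5 (-0.27). Adjusted p of these 15 genes ran from 2.29e-05 to 0.00925, and median log2 fold changes of the last 4 lists were -0.03, -0.01, -0.03 and 0.08. With the term for the library set, which called 1.72% of all genes higher and 2.96% lower, the counts that rose and fell were 5 and 0, 0 and 0, 1 and 0, 1 and 0, and 0 and 2 in the same order of lists.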

How the data were processed

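Raw counts per gene were deposited by the authors, who name STAR 2.7.9a and GRCh38 in the submitters' processing notes, from paired-end reads of 9 H1299 libraries. Per the file headers, unmapped, multimapping, no-feature and ambiguous reads are set apart, so the deposited counts leave multimapping reads out. The annotation release is not given in the sources used here. All 58721 identifiers matched GENCODE release 29. Strand totals differed by less than 5%, so counts regardless of strand were used, and near-identical or overlapping genes cannot be fully told apart.

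Genes passing filterByExpr (16441) were fitted in edgeR 4.0.16 (R 4.3.3) with TMM scaling and 1 term per group over all 9 libraries (biological coefficient of variation 0.0682), with two-sided quasi-likelihood F tests adjusted by Benjamini-Hochberg over all genes tested, at adjusted p under 0.05. SEs were taken as the absolute log2 fold change over the root of F. Library sets were divided at 1.8% unmapped reads. Ratios to a parent used a pseudocount of 0.5. The parent is the symbol before the last P and number. Pseudogene and parent transcripts were aligned locally (Biopython 1.88, match 2, mismatch -3, gap -5 and -2).

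The pseudogenes, the 5 gene lists (cytosolic ribosomal protein genes, other TOP messenger RNAs, their regulators, nonsense-mediated decay, silencing of retroelements), the markers, the library sets and all choices were made with earlier results of these data known. Genes were named by rule: the 12 most counted, up to 8 risers and 8 fallers per comparison at 1 CPM or more, the 8 highest per kilobase relative to the parent, all transcribed ones, the copies of the 3 parents with most copies, those nearest the threshold, and the 3 list genes with smallest p. Copies named for departing from the relation with identity were chosen after their values were seen. RPL12P4 and the RPL12 sequences shown were also chosen outside the rule.

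Libraries of 1 group differed beyond sampling noise (chi-square per degree of freedom 1.69 to 13.1), so none looked like 1 library sequenced again. This measure cannot tell whether they came from separate cultures. Some items, a marker gene and some sequences, are not reported here. The code was tested on simulated data. Alternatives were DESeq2 1.42.0, other scalings and filters, only the libraries compared, a replicate block, the set term, strand columns, other count minimums and thresholds, and each library left out in turn.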

Additional observations from a re-analysis of the deposited data

How the results depend on the processing

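The 38 higher and 3 lower calls of melatonin against control stayed within 1.5 times under other scalings, filters, strand columns and DESeq2 (37 and 3), and under each library left out (35 to 38 higher, 3 lower). They did not under the set term (0 and 1), and members with at least 300 counts gave 1 lower. With the set term the log2 fold change reversed for RPL7P9 (-0.0377), RPL7P23 (-0.30), RPL7P1 (-0.12), RPL24P4 (-0.39), RPL13AP5 (-0.0772), RPL14P1 (-0.20) and RPS7P1 (-0.0249). The 0 calls of siCLOCK against control became 24 higher with no filter on low counts and 0 to 5 higher with 1 library left out (5 without siCLOCK replicate 1), and were 0 lower in each case. The 27 higher and 2 lower calls of melatonin against siCLOCK depended most on the setting: 11 and 1 with DESeq2, 15 and 1 with only the 6 libraries compared, 16 and 1 on the first strand column, 27 and 0 on the second, 8 and 0 at an adjusted p under 0.01, 10 and 0 when a log2 change of 1 or more was also asked for, 0 and 0 with the set term, 5 higher within the set of 4 libraries, 1 lower among members with at least 300 counts, and 9 to 38 higher and 0 to 2 lower with 1 library left out. RPL7P9 reversed there (-0.0389 with the set term, -0.0421 within the 4 libraries). The cause of these changes was not tested.

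Same-numbered libraries did not deviate together (correlations -0.092 to 0.063), so no pairing by number was seen. With 3 libraries per group, a weak pairing could be missed. With a replicate block, 38 and 3, 0 and 0, and 34 and 2 were called in the 3 comparisons. On unscaled CPM, 1 member in place of 2 was below between the library sets. The median log2 ratio to the parent was 0.98 on the first strand column and 1.32 for members with at least 300 counts, against 1.22.

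Members under 1 CPM, 16 of the 61, rest on few counts. Over the 53 that pass the filter in the 5 libraries alone, an alternative chosen after seeing the data, 31 in place of 37 were above between the library sets. Each group has 3 libraries, and melatonin and the library sets overlap except for 1 library, which limits every comparison here.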
